A study of Homo sapiens with 3 samples.

Results

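The immunoglobulin heavy-chain locus was examined in the chromatin of SC1, an established human B-cell line labelled as diffuse large B-cell lymphoma (DLBCL). ChIP-seq, the sequencing of DNA pulled down with an antibody, was done for CREBBP, an enzyme that acetylates lysines of histones, and for H3K27ac, the acetylated lysine 27 of histone H3 that is found at active promoters and enhancers. Each antibody was used on 1 sample, an input without antibody was not analysed here, and the labels name no treatment or genotype for any of them. The peaks are named with DMSO and rep2, and the labels explain neither word. With 1 sample a group no value has a replicate error, and no difference was tested.

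The members are all intervals that overlap the 1290 kb of chromosome 14 that run up to 107.29 Mb on hg19. They were 107 of 215598 CREBBP peaks and 35 of 18263 H3K27ac regions. By the position of their midpoint they were divided into a low part (below 106.325 Mb; constant genes and 3′ enhancers), a middle part of 10 kb (J segments and intronic enhancer) and an upper part (above 106.335 Mb; V segments). The low part held 21 CREBBP peaks and 15 H3K27ac regions, the middle part 1 of each, and the upper part 85 and 19. The window is set by coordinates and not by a measured value, but it was chosen with earlier results of these data known.

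The heavy chain of an antibody is encoded in pieces. A V, a D and a J segment are joined in each developing B cell, and the DNA between the joined segments is lost from that allele. Class switching later replaces the constant gene next to the joined V segment, again with loss of the DNA in between. The promoter of the joined V segment is driven by an enhancer in the intron between the J segments and IGHM, and by 3′ regulatory regions, one downstream of IGHA1 and one downstream of IGHA2, which also act in class switching. IGHM and IGHD encode the constant regions of IgM and IgD, the classes of a B cell that has not switched. IGHG1 encodes that of an IgG, and IGHA1 and IGHA2 those of IgA. In RefSeq's gene table of another assembly (GRCh38.p14), used here for names and order only, the constant genes run from low to high coordinates as IGHA2, IGHE, IGHG4, IGHG2, IGHGP, IGHA1, IGHEP1, IGHG1, IGHG3, IGHD and IGHM. IGHGP and IGHEP1 are pseudogenes. After them come 6 J segments and 3 J pseudogenes, interleaved with 1 of 27 D segments, then the other D segments, and last 48 V segments and 79 V pseudogenes. By this order the D segments other than the first would be expected in the upper part as it is defined here, but their positions were not used. No annotation of hg19 was used, so no interval was assigned to a single gene. Which segments and constant genes the rearranged alleles of SC1 still carry was not analysed here.

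Each interval carries the fold enrichment that the authors' peak caller gave it, which divides the ChIP signal by the background expected, and a q-value. For CREBBP the fold and p of a peak also give the number of fragments at its summit and the background expected there, if 1 is added to both before they are divided and p is an upper Poisson tail. For all 107 members some whole number of fragments gave the deposited −log10 p to within 0.001. These numbers are inferences from the deposited values and describe summits, not totals over a peak.

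The locus was rich in H3K27ac and in strong CREBBP peaks. H3K27ac regions numbered 27.1 per Mb and covered 11.3% of its 1290 kb, against 5.24 per Mb and 0.919% over the rest of chromosome 14. Of the 107 CREBBP peaks, 16 had a q of at most 0.05, 15.0% (exact Clopper-Pearson 95% interval 8.80 to 23.1%), against 1.81% of the whole list. Inside an H3K27ac region, by at least 1 bp, lay 41 of 107, 38.3% (29.1 to 48.2%), against 5.06% of the whole list. The density of all CREBBP peaks was closer to that elsewhere, 82.9 per Mb against 60.4 on the rest of chromosome 14 and 71.0 over all chromosomes used. Chromosome lengths were counted from the first base to the end of the last interval. Any unsequenced stretch is thus included, and it lowers the densities and the coverage given for the rest of chromosome 14 and for all chromosomes. By how much was not worked out. The share of H3K27ac regions that held a CREBBP peak, 18 of 35 or 51.4% (34.0 to 68.6%), was near the 49.0% of the whole list. These intervals describe counting error alone, and neighbouring peaks need not be independent.

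**Figure D1:**
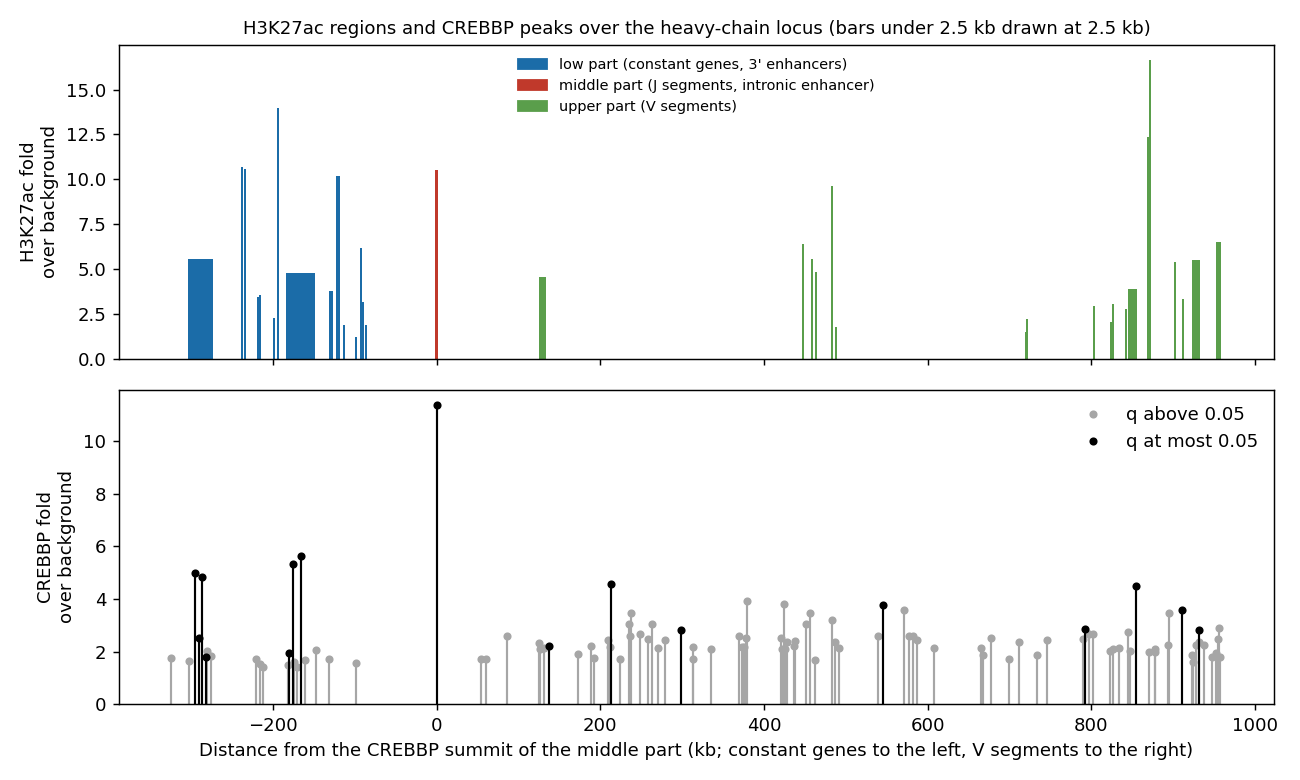
H3K27ac regions (upper panel, bar height is fold, bar width is the region) and CREBBP peaks (lower panel, fold at each summit) along the locus, by distance in kb from the CREBBP summit of the middle part. Black points are the 16 CREBBP peaks with a q of at most 0.05. The highest CREBBP fold, 11.4, stands alone at 0 kb, and the widest H3K27ac blocks are the 2 in the low part.

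The middle part held 1 CREBBP peak, the strongest of the locus by fold and by q. It spanned chr14:106327709-106329414, 1706 bp, with its summit at 106328380. Its fold was 11.4 and its −log10 q 84.5, with 126 fragments over a background of 10.2. Over the whole CREBBP list it ranked 2 by fold, 41 by q and 162 by width. The next highest fold in the locus was 5.63. The peak lay wholly inside the only H3K27ac region of the middle part, chr14:106326869-106330471, 3603 bp wide with a fold of 10.5 and a −log10 q of 121. The peak took up 47.3% of that region, leaving 840 bp on its low side and 1057 bp on its high side. In H3K27ac fold the region ranked 6 of the 35 in the locus, so the place with the highest CREBBP fold was not the place with the highest H3K27ac fold. By format the fold of an H3K27ac region is a mean over its width, which was 644 bp for the region with the highest fold. Regions of unlike width are therefore not ranked on equal terms, here or below.

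This pair had no close neighbour in the locus. Over the rest of chromosome 14, any unsequenced length included, H3K27ac regions were sparser, 5.24 per Mb against 27.1 in the locus. The distances of the pair are therefore described within the locus only. The nearest H3K27ac region was 85.5 kb away on the low side, toward the constant genes, and 122.5 kb away on the high side. The nearest CREBBP peak was 97.6 kb away on the low side and 52.7 kb on the high side. The 85.5 kb stretch from 106241388 to 106326868 held no interval of either list. Of 26 bins of 50 kb along the locus (the last is 40.001 kb), 1 held neither mark, from 106250000 to 106299999, and it lay in this stretch. In the gene order IGHG3, IGHD and IGHM are the last constant genes before the J segments, but their positions on hg19 were not used here. An empty stretch says only that no peak was called there.

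The low part held the widest H3K27ac regions. H3K27ac covered 87.8 kb of its 325 kb, 27.01%, and 2 regions made up 74.3% of that. The first, chr14:106024864-106055068, was 30.2 kb wide with a fold of 5.60 and ranked 5 by width among all 18263 regions. The second, chr14:106144228-106179286, was 35.1 kb wide with a fold of 4.80 and ranked 2. They lay 89.2 kb apart. Each held 7 CREBBP peaks, so 14 of the 21 CREBBP peaks of the low part lay in them, as did all 7 with a q of at most 0.05.

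Each wide region had 2 CREBBP peaks far stronger than its other 5. In the first they were chr14:106032084-106033148, with a fold of 5.001 and 138 fragments over a background of 26.8, and chr14:106041228-106042392, with a fold of 4.84 and 139 fragments over 28.0. Their −log10 q values were 46.8 and 45.5. In the second they were chr14:106152097-106153487, with a fold of 5.34 and 128 fragments over 23.1, and chr14:106162464-106163228, with a fold of 5.63 and 166 fragments over 28.6. Their −log10 q values were 46.5 and 63.9. By q these 4 peaks ranked between 58 and 75 in the whole list. The 166 fragments were the most at any CREBBP summit of the locus, more than at the peak of the middle part, where the background was lower and the fold higher.

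The strong peaks were placed alike in the wide regions. The first of each pair had its summit 7.97 kb and 8.34 kb from the low edge of its region. The summits of a pair were 8.69 kb apart in the first region and 10.3 kb apart in the second. Beyond the second summit the H3K27ac region ran on for 13.6 kb and 16.4 kb. The weaker peaks were placed less alike. In the first region 3 of them lay on the high side of the second strong summit, 1 between the strong summits and 1 below them. In the second region 1 lay on the high side, 2 between and 2 below. The stretches downstream of IGHA1 and IGHA2 are known to be duplicated copies with similar sequence. How reads from similar copies were placed is not given in the sources used here, so the 2 regions are not taken as independent of each other.

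**Figure D2:**
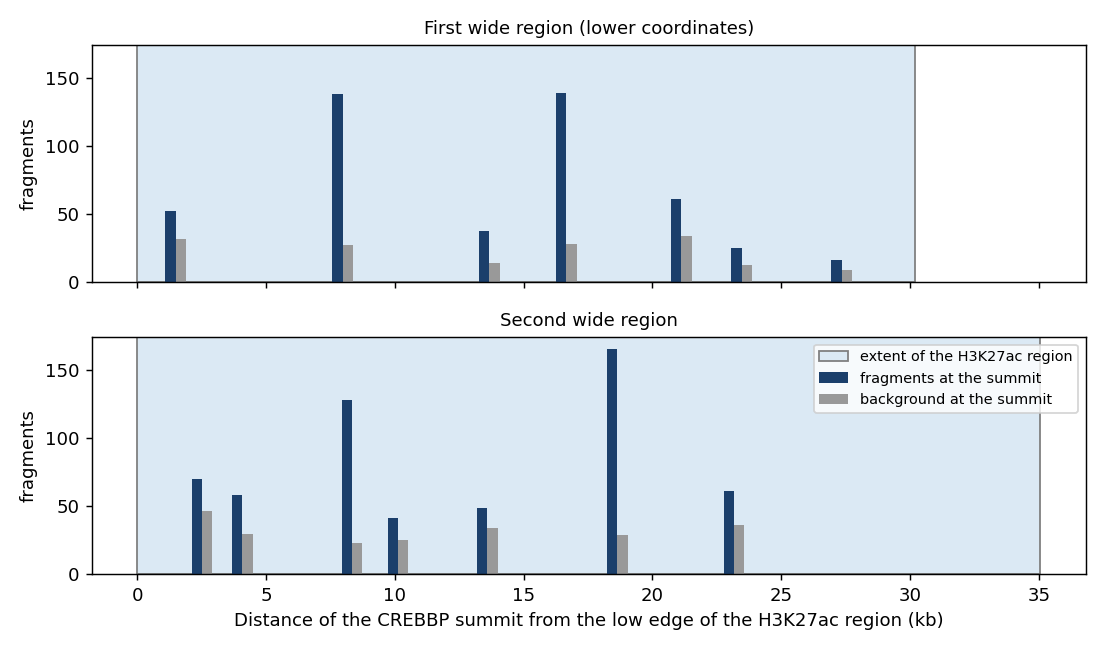
Fragments (dark bars) and background (grey bars) at each CREBBP summit in the 2 wide H3K27ac regions of the low part, by distance in kb from the low edge of the region. Shading marks the extent of the region, 30.2 kb in the upper panel and 35.1 kb in the lower. In each panel 2 peaks stand between 128 and 166 fragments and the other 5 at 70 or fewer.

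The other CREBBP peaks of the wide regions had many fragments and low folds. In the first region the 5 weaker peaks had 16 to 61 fragments, over backgrounds of 8.31 to 33.3, and folds of 1.64 to 2.53. The peak chr14:106038392-106038655, with 37 fragments over 13.999, had a −log10 q of 2.97, and chr14:106045710-106046178, with 61 over 33.3, had 1.48. In the second region the 5 had 41 to 70 fragments, over backgrounds of 24.9 to 46.2, and folds of 1.42 to 1.93. Of these, chr14:106148048-106148545 had a q of at most 0.05, with 58 fragments over 29.6. The peak with 70 fragments stood on the highest background of the locus, 46.2, and did not reach that q. At a given number of fragments, a higher background gives a lower fold and a higher q.

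Outside the wide regions, most H3K27ac regions of the low part held no CREBBP peak. These 13 regions were 265 to 4918 bp wide. Their median width, 1275 bp, was near the 1423 bp of the whole list. A CREBBP peak lay in 2 of the 13, against 49.0% of the regions in the whole list. A fold of at least 10, a limit set after the values were seen, was reached by 4, and none of the 4 held a CREBBP peak (0 of 4, exact 95% interval 0 to 60.2%). Of all 2871 regions with that fold in the list, 46.7% held one. The 4 regions therefore say little about how often CREBBP peaks lie in regions of high fold.

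Of these 4, the region with the highest H3K27ac fold in the low part was chr14:106133818-106134842, at 13.98, 1025 bp wide and 11.7 kb from the nearest CREBBP peak. It lay on the low side of the second wide region. The regions chr14:106089527-106090801 and chr14:106092588-106095533 were neighbours with folds of 10.7 and 10.6. They lay in a 54.8 kb stretch without a CREBBP peak. The fourth, chr14:106205676-106210593, was 4918 bp wide with a fold of 10.2. It lay 7.92 kb from the nearest CREBBP peak.

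The other 9 regions outside the wide ones had folds of 1.21 to 6.20. A CREBBP peak lay in chr14:106111225-106112326 (H3K27ac fold 3.58) and in chr14:106196546-106201188 (H3K27ac fold 3.80). Those CREBBP peaks had folds of 1.52 and 1.74, and neither had a q of at most 0.05. The 5 H3K27ac regions at the high end of the low part held no CREBBP peak. Their folds were 1.89 at chr14:106213452-106213864, 1.21 at chr14:106228778-106229657, 6.20 at chr14:106234367-106235711, 3.19 at chr14:106237503-106238844 and 1.91 at chr14:106241123-106241387. The region with 1.21 was the only H3K27ac member with a q above 0.05, where 99.3% of the whole list had a q of at most 0.05. The last 2 of the 9 were chr14:106108572-106109874, with a fold of 3.44, and chr14:106128099-106129173, with 2.31.

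**Figure D3:**
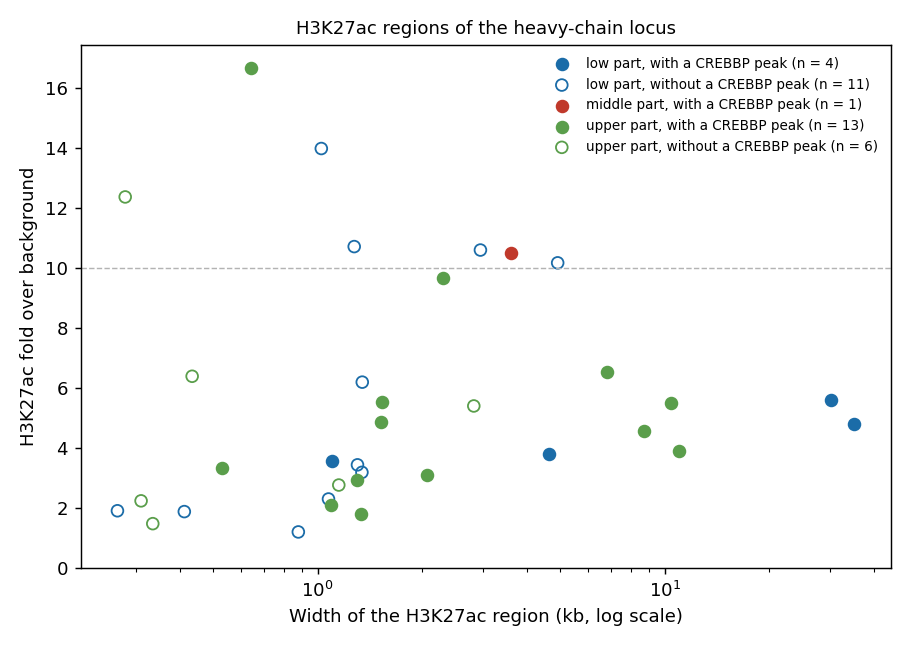
Fold against width in kb (log scale) for the 35 H3K27ac regions, filled where the region held a CREBBP peak. The dashed line marks a fold of 10. The 4 regions of the low part above the line are open, and the 2 widest regions, at 5.60 and 4.80, are filled.

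The upper part, by far the longest at 955 kb, had less of its length covered by H3K27ac and CREBBP peaks of fewer fragments. H3K27ac covered 54.6 kb, 5.71% of it. Of its 85 CREBBP peaks, 24 lay inside an H3K27ac region, 28.2% (19.0 to 39.0%), and 8 had a q of at most 0.05, 9.41% (4.15 to 17.7%). In the low part the same shares were 16 of 21, 76.2% (52.8 to 91.8%), and 7 of 21, 33.3% (14.6 to 57.0%). Conversely 13 of 19 H3K27ac regions of the upper part held a CREBBP peak, 68.4% (43.4 to 87.4%). In the low part 4 of 15 did, 26.7% (7.79 to 55.1%). The share over the whole list, 49.0%, lay inside both intervals. With CREBBP peaks of q at most 0.05 these shares were close, 3 of 19 or 15.8% in the upper part and 2 of 15 or 13.3% in the low part, against 11.4% of the whole list. The differences between the parts were not tested.

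H3K27ac in the upper part fell into 4 groups separated by more than 50 kb. The group nearest the J segments was the single region chr14:106452990-106461715, 8726 bp wide with a fold of 4.56, which held 3 CREBBP peaks of 5 to 10 fragments. Between it and the middle part lay 122.5 kb without H3K27ac, where 3 CREBBP peaks had folds of 1.74 to 2.60 and a median of 3 fragments. By the gene order, the D segments and the first V segments follow the J segments on this side.

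The second group, of 5 regions, spanned 41.9 kb from 106774352 to 106816278. Its highest fold was 9.65, at chr14:106810493-106812794. A CREBBP peak lay in that region, with a fold of 3.20, and in 3 others: chr14:106785482-106787011 (H3K27ac fold 5.55), chr14:106790120-106791637 (4.86) and chr14:106814947-106816278 (1.79). The fifth, chr14:106774352-106774786, had a fold of 6.39 and held none. None of the CREBBP peaks in this group had a q of at most 0.05. The third group was a pair of regions of 335 and 310 bp, chr14:107046940-107047274 and chr14:107048691-107049000, with folds of 1.49 and 2.24 and no CREBBP peak.

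The fourth group lay at the far end of the V segments, from 107130323 to 107287291, and held 11 of the 19 regions and 38.1 of the 54.6 kb. It also held 24 CREBBP peaks, 17 of them inside its regions. The highest H3K27ac fold of the locus was here, 16.7 at chr14:107198869-107199512, a region of 644 bp. The CREBBP peak it held had a fold of 1.97. Beside it, chr14:107196838-107197116 had a fold of 12.4 and held no CREBBP peak.

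The widest regions of this group were chr14:107173041-107184018 (fold 3.90, 3 CREBBP peaks), chr14:107251010-107261428 (fold 5.52, 5 CREBBP peaks) and chr14:107280491-107287291 (fold 6.54, 4 CREBBP peaks). A CREBBP peak each lay in chr14:107130323-107131621 (H3K27ac fold 2.95), chr14:107150582-107151671 (2.09), chr14:107153983-107156052 (3.09) and chr14:107239134-107239662 (3.33). None lay in chr14:107169837-107170987 (H3K27ac fold 2.77) or chr14:107229356-107232174 (5.40).

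The 8 CREBBP peaks of the upper part with a q of at most 0.05 were 3 inside and 5 outside H3K27ac. Of the 16 in the whole locus 11 lay inside, 68.75%, and of all such peaks in the list 56.5% did. All 3 inside belonged to the fourth group. They were chr14:107183196-107183449 (fold 4.47, 25 fragments over 4.81), chr14:107238897-107239904 (fold 3.58, 39 over 10.2) and chr14:107259342-107259940 (fold 2.80, 23 over 7.56). The first was only 254 bp wide and lay near the high edge of its H3K27ac region. The second was wider than the H3K27ac region it met, sharing 529 of its 1008 bp, and its summit lay just beyond the edge.

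The 5 outside were spread over the V segments. The highest fold of the upper part, 4.57, was at chr14:106541735-106542390, with 12 fragments over 1.85, 80.0 kb from the nearest H3K27ac region. At chr14:106873492-106873902 the fold was 3.78, with 27 fragments over 6.42, at a distance of 57.2 kb. At chr14:107119865-107120322 it was 2.85, with 44 fragments over 14.8, the most fragments in the upper part, at a distance of 10.0 kb. The peaks chr14:106626899-106627204 (fold 2.81, 20 over 6.47) and chr14:106465635-106466910 (fold 2.22, 32 over 13.9) lay 147 kb and 3.92 kb from H3K27ac. Among the 5 highest folds of the upper part were also chr14:106707704-106708117 (3.90) and chr14:106752050-106752426 (3.79), with 8 fragments each and a q above 0.05.

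The longest stretch without H3K27ac, 312.6 kb from 106461716 to 106774351, was not short of CREBBP peaks. It held 32 of them, 102 per Mb, with a median fold of 2.37, a median of 6 fragments and a median background of 1.85. The next, 230.7 kb from 106816279 to 107046939, held 13, or 56.4 per Mb, with the same median of 6 fragments. In these stretches 3 and 1 CREBBP peaks had a q of at most 0.05.

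Fragments and background differed along the locus more than fold did. The median CREBBP peak of the low part had 41 fragments over a background of 23.1. In the upper part it had 7 over 2.06, and in the whole list 5 over 1.30. The median fold was lower in the low part, at 1.76, than in the upper part, at 2.35, or in the whole list, at 2.17. Among peaks with a q of at most 0.05 the order was turned, with a median fold of 4.84 in the low part and 3.22 in the upper part. These medians rest on 7 and 8 peaks chosen by q, which itself depends on fold. Their folds ran from 1.81 to 5.63 and from 2.22 to 4.57, so each range holds the median of the other part. The commonest background of the list, 1.30 fragments, was found at 54.5% of all peaks, at 18 of 85 in the upper part and at 0 of 21 in the low part. A background of 20 fragments or more was found at 11 of 21 peaks in the low part, at no other member of the locus and at 0.187% of the whole list. A −log10 q of 0 was given to 52 of 85 peaks in the upper part and 8 of 21 in the low part, against 80.7% of the list. At least 100 fragments were reached by 5 peaks of the locus, the 4 strong ones of the low part and that of the middle part, against 155 or 0.0719% of the whole list. Fragments were solved for 215580 of the 215598 peaks. The others stay in the totals of these shares and count as not meeting a limit on fragments or background. Among solved peaks, none of the 6404 on the rest of chromosome 14 had more than 69.

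Inside H3K27ac regions the CREBBP peaks of the upper part had a median of 14.5 fragments over 5.48, and outside them 6 over 1.85. Of the 24 inside, 20 had at least 10 fragments, and of the 61 outside, 13 did. The median folds, 2.30 and 2.37, were close. In the low part the 16 inside had a median of 55 fragments over 27.4 and the 5 outside 17 over 8.31. Over the whole list the peaks inside had a median of 16 fragments over 6.87, and those outside 5 over 1.30. Their median folds were 2.15 and 2.17. More fragments inside H3K27ac thus came with a higher expected background, in the locus as in the whole list. What raised the background was not tested.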

How the data were processed

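The genome build was hg19 and the tools named are fastp, STAR, Bowtie2 and MACS2, per the submitters' processing notes. Of their roles, versions and settings, the control library and pooling, nothing is given in the sources used here. The authors deposited narrow CREBBP peaks and broad H3K27ac regions, each with a score, a fold enrichment (a ratio), and p and q as −log10 values. The deposited CREBBP list also gives summit positions, and its smallest −log10 p was 1.30. Broad regions by format carry mean values, so folds were not compared between the deposited lists. Depth is not stated in the lists.

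Only chromosomes 1 to 22 and X entered, without 128 CREBBP and 17 H3K27ac intervals. Positions are 1-based. The text names every interval of the middle part, every H3K27ac region, every CREBBP peak with a q of at most 0.05, and the 5 highest folds of the upper part; any other was chosen after its values were seen. Window, parts and rules were chosen with earlier results of these data known. Alternatives were other bounds, stronger peaks or regions and other overlaps. Python 3.11.15, numpy 2.4.6, pandas 2.3.3, scipy 1.17.1 and matplotlib 3.10.9 were used. Code was tested on simulated data.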

Additional observations from a re-analysis of the deposited data

How the results depend on the processing

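Of 63 recomputed values, 51 stayed within the counting interval of the reported share or median, or within 1.5 times the reported count or coverage, and 12 moved. Many of the 51 could hardly have moved, so this tally is no measure of robustness. With the other bounds 23 stayed, and each part kept the same members. The middle part has 1 interval of each list, and the counting intervals of its shares run from 2.5 to 100%. With bounds of 106.32 and 106.34 Mb, H3K27ac covered 18.0% of the middle part in place of 36.0%, since the part is longer and its members are the same 2 intervals. With only CREBBP peaks of q at most 0.05, the low part held 7 peaks and the upper part 8, and 100% of those in the low part lay inside H3K27ac. Their median CREBBP fold was 4.84 in the low part and 3.22 in the upper part, the reverse of the order with all peaks. The folds of these few peaks overlapped widely between the parts. A peak of that q lay in 15.8% of H3K27ac regions in the upper part and 13.3% in the low part, so the contrast in this share between the parts was not seen. With the upper 50% of CREBBP peaks by p, 93.75% of those in the low part lay inside H3K27ac. With H3K27ac limited to the upper 50% by q, 7 regions remained in the low part and 7 in the upper part, which covered 2.35% of the upper part, and 14.1% of CREBBP peaks there lay inside. Requiring a 50% overlap or the summit inside moved no value past its interval. No paired analysis was possible because no group had more than 1 sample. The low fragment numbers of most peaks in the upper part limit what can be said of any single one of them.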

Other observations

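Joining H3K27ac regions within 12.5 kb of each other gave 17 domains in the locus, and 6 of them were among the 662 widest of all 13232 by covered length, each with at least 8.03 kb covered. The largest, from 106128099 to 106179286, joined the second wide region of the low part to 2 narrower regions on its low side. It covered 37.2 kb and ranked 16 of all domains. The first wide region stood alone as a domain and ranked 31. The third domain of the low part among the widest covered 9.97 kb from 106196546 to 106213864 in 3 regions, and it held 1 CREBBP peak. In the upper part the widest domains were the single region nearest the J segments, which ranked 572, and 2 in the far group, which ranked 300 and 224. The region of the middle part, with the highest CREBBP fold of the locus, ranked 2243 and was not among the widest.

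Along the locus in 50 kb bins, 12 of 26 bins held no H3K27ac, and 11 of these 12 held a CREBBP peak. Of all 26 bins only 1 held no CREBBP peak, so in this the bins without H3K27ac were like the others. The bin with the most CREBBP peaks, 11, was the last, at the far end of the V segments.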
